A study of Rattus norvegicus with 18 samples.

Results

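Mitosis and cytokinesis genes encode the proteins that carry a cell from G2 phase through chromosome segregation to the splitting of the daughter cells. They were taken as a list of 44 gene symbols chosen by function, and 40 of them had a row in the deposited expression table of 17303 rows. The list was chosen with earlier results of these data known, so it is not independent of the counts below. The 4 symbols without a row (Cenpe, Kif4a, Spc24 and Anln) were not analysed here. All 40 passed the filter on low values, which left 10478 rows for testing.

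The RNA came from cultured ventricular myocytes of Wistar rats at postnatal day 3, in 6 groups of 3 libraries. Phenylephrine (PE), which stimulates alpha1-adrenergic receptors and makes heart muscle cells grow in size, was given alone at 10 µM, with 10 µM Senexin A or with 50 µM Senexin A. Senexin A inhibits CDK8, the kinase of the Mediator complex, and was also given alone at 10 µM and at 50 µM, beside a Vehicle group. Every culture, Vehicle included, had first received AraC for 48 h, a drug that kills cells in S phase, then 24 h without serum and 48 h of treatment with the medium renewed at 24 h. Cells that enter the cycle in such a culture can be myocytes or the non-myocytes that remain, and in RNA from a whole dish fewer cells of a type and less RNA per cell cannot be told apart. The labels do not say that the libraries of a group were separate cultures or animals, so a p-value here measures only how far these samples spread, and that spread may be technical.

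Cyclin B and its kinase CDK1 start mitosis. Aurora and Polo-like kinases, kinetochores, checkpoint proteins and kinesins then attach and separate the chromosomes, and the anaphase-promoting complex destroys cyclin B and securin to end it. Most of these genes are transcribed late in the cell cycle, under the DREAM and MuvB complexes with B-MYB and FOXM1, through a promoter element called CHR (cell cycle genes homology region) and neighbouring CCAAT boxes bound by NF-Y. The heart muscle cells of newborn rodents are leaving the cell cycle, and many of them divide their nucleus without dividing the cell.

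FPKM (fragments scaled by transcript length and by mapped fragments) summed over all rows to 810428 to 853958 per library in PE, 839441 to 910958 in PE with 10 µM Senexin A, 790067 to 897706 in PE with 50 µM, 610324 to 660958 in Vehicle, 699695 to 746492 in 10 µM alone and 755249 to 826406 in 50 µM alone. Read totals are unknown. The steps between the lowest values give each library a depth of 0.833 to 1.11 times that of Vehicle replicate 2. Every fold change is a difference of log2(FPKM + 1) and so understates changes of genes with low FPKM. A gene was called at an adjusted p under 0.05 (limma, Benjamini-Hochberg over all tested rows).

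The promoters of these genes share the sequence elements that the background names. RefSeq promoters of the GRCr8 build, from 250 bases before to 50 bases after the gene start, were at hand for 34 of the 40 genes. TTTGAA, the common form of the CHR, was searched on both strands and stood in 24 of the 34 promoters (70.6%), against 895 of 7980 promoters of the other tested genes (11.2%) and 18.3% of all 33469 promoters in the table. CCAAT on either strand stood in 26 of the 34 (76.5%), against 38.3% of the other tested genes and 37.5% of all promoters. Both elements stood in 20 of the 34 promoters (58.8%), against 4.6% of the other tested genes. In 2 places a TTTGAA match and a CCAAT match overlapped. All 24 genes had a TTTGAA match between 100 bases before and 50 bases after the start, a window in which 4.6% of the other tested genes had one. A match is a description of the letters and not a bound site.

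The 6 stretches below are shown because, among a fixed panel of these genes, their TTTGAA lay nearest to the start. Each runs from 100 bases before to 20 bases after the start, 5′ to 3′ on the strand of the gene, with TTTGAA and CCAAT or its reverse complement ATTGG in capitals. In GRCr8 coordinates they are chr2:111966607-111966726 (minus strand) for Ect2, chr13:103760867-103760986 (minus) for Cenpf, chr10:103572046-103572165 (plus) for Birc5, chr1:186147558-186147677 (plus) for Plk1, chr20:19265193-19265312 (plus) for Cdk1 and chr1:143659381-143659500 (plus) for Prc1.
Ect2: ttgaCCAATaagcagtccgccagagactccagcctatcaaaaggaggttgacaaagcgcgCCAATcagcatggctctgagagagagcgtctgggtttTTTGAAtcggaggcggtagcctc
Cenpf: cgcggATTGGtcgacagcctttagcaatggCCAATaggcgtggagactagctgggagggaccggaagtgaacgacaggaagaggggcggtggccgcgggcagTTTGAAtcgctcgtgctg
Birc5: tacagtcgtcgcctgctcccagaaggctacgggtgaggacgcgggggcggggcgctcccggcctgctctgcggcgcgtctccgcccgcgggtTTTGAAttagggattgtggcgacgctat
Plk1: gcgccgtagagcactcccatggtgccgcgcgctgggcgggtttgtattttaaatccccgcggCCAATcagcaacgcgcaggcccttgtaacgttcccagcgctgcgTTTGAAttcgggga
Cdk1: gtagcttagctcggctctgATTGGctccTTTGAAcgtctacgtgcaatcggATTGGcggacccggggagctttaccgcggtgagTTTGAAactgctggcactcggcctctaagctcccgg
Prc1: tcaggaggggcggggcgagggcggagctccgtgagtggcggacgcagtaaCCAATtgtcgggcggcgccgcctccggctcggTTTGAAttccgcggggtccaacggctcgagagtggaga
In Ect2 the element spans the start itself, in Cenpf and Plk1 it begins just after it, and in Birc5, Cdk1 and Prc1 it ends before it. Cdk1 carries the element at 2 positions, each with an ATTGG on its upstream side. The Birc5 stretch holds no CCAAT, and its 1 match lies farther upstream. Aurka, Melk, Bub1 and Kif2c had neither element in the searched window.

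**Figure D1:**
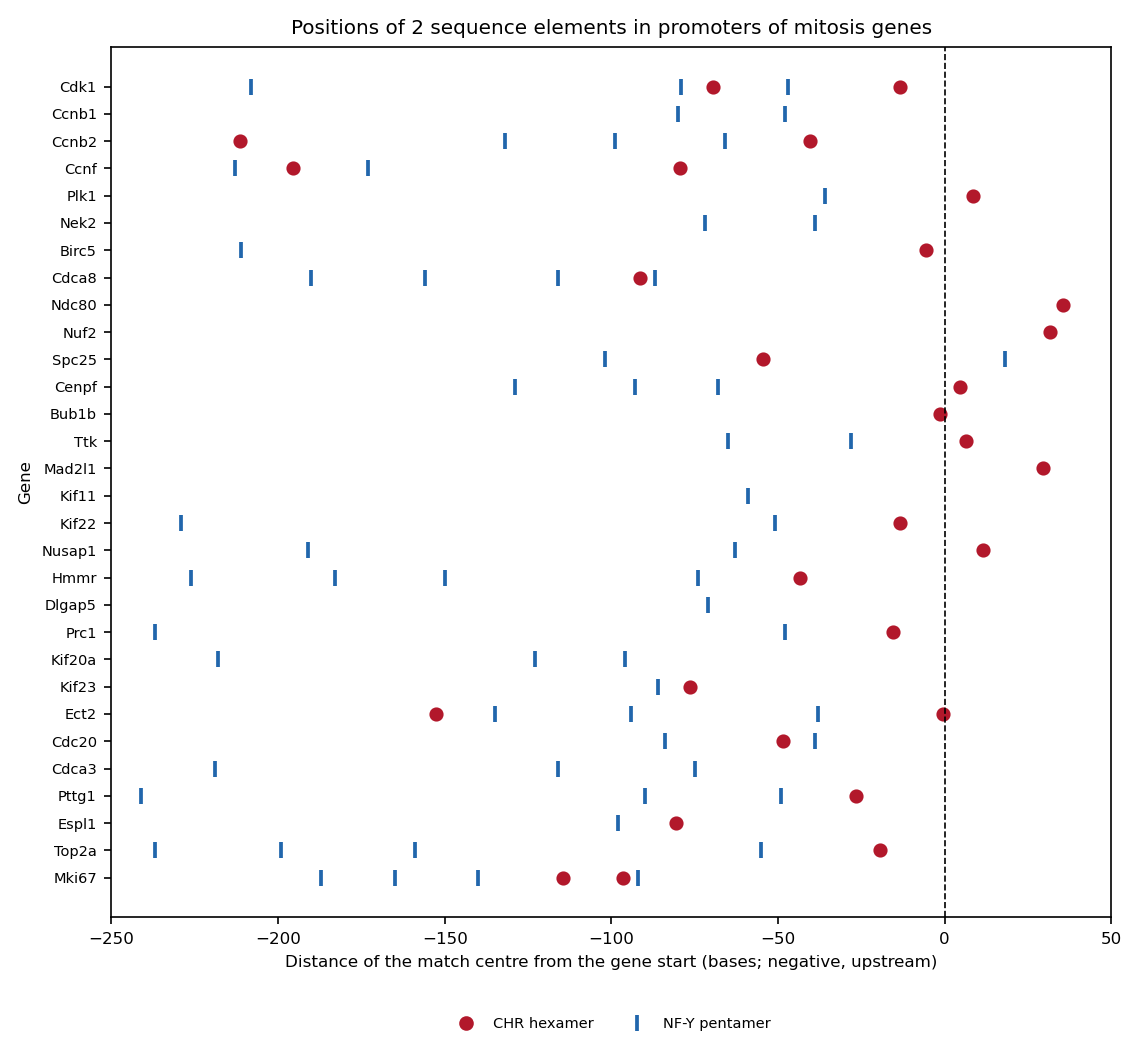
Positions of TTTGAA (CHR hexamer, red circles) and CCAAT (NF-Y pentamer, blue bars) matches on either strand, in bases from the gene start, for the 30 mitosis genes with at least 1 match. All 24 genes with the hexamer have a match within 100 bases before to 50 bases after the start, and the pentamer matches lie mostly upstream.

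PE against Vehicle asks what the hypertrophic stimulus does to these genes. PE raised 35 of the 40 and lowered none, while 17.9% of all tested genes were called higher and 12.7% lower. The median log2 fold change of the 40 was 0.71, with a range of 0.10 to 1.28, against -0.01 over all tested genes. The libraries of the groups did not overlap for 38 of the 40, all higher with PE, against 25.7% of tested genes that were higher in this way. Without Vehicle replicate 3 the count was 27, with the calls of Ccna2, Aurkb, Cdca3, Kif23, Mad2l1, Nusap1, Ttk and Ube2c lost.

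Among the cyclins, Ccnb1 (cyclin B1) stood at 32.3, 37.2 and 40.9 FPKM with PE, against 15.3, 17.4 and 12.3 FPKM in Vehicle. Every PE library was above every Vehicle library, and the log2 fold change was 1.25 ± 0.18 SE (limma adjusted p = 9.4e-05). Cdk1, the kinase that cyclin B1 activates, stood at 104, 118 and 125 FPKM with PE and at 74.7, 89.4 and 67.8 FPKM in Vehicle. Its groups did not overlap either, with a smaller log2 fold change of 0.58 ± 0.13 (limma adjusted p = 0.0032). Ccna2 (cyclin A2), which acts from S phase on, changed by 0.50 ± 0.18 with an adjusted p of 0.0495 in limma. That call was lost in 9 of the alternatives, among them quantile normalization (0.0836) and leaving out Vehicle replicate 3 (0.205).

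The kinases that run mitosis were uneven. Nek2, which separates the centrosomes, had the largest log2 fold change of the 40, at 1.28 ± 0.22 (limma adjusted p = 0.00051), with 35.4, 32.4 and 35.2 FPKM in PE and 15.3, 14.8 and 10.9 FPKM in Vehicle. Aurka, the Aurora kinase of the spindle poles, rose by 1.12 ± 0.16 (limma adjusted p = 9.2e-05). Plk1, the Polo-like kinase, rose by 0.66 ± 0.17 (0.0073). Melk, a kinase of dividing cells, stood at 7.96, 7.44 and 9.01 FPKM with PE and at 7.99, 8.004 and 6.58 FPKM in Vehicle. Those libraries overlap, and its log2 fold change was 0.10 ± 0.14 (limma adjusted p = 0.62).

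In the chromosomal passenger complex, which corrects faulty attachments and later sets up the cleavage furrow, 3 of 4 genes rose. Birc5 (survivin) rose by 0.90 ± 0.15, Cdca8 (borealin) by 0.84 ± 0.16 and the kinase Aurkb by 0.45 ± 0.13 (limma adjusted p = 0.00045, 0.0011 and 0.014). The Aurkb call was also lost without PE replicate 3 (0.0752) and in the fit of these groups alone (0.0556). Incenp, the scaffold of the complex, changed by 0.30 ± 0.12 (adjusted p = 0.061), and by the same size with an adjusted p of 0.033 once replicate number was a block. Its row shares a locus with 5 other genes in the table, Fth1 among them, so its values are uncertain.

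At the kinetochore, the microtubule attachment site of the chromosome, Nuf2 rose by 0.81, Spc25 by 0.73 and Cenpf by 0.57 (limma adjusted p = 0.0011, 0.005 and 0.006). Ndc80, partner of Nuf2 in the NDC80 complex, had libraries of 23.3, 31.3 and 28.8 FPKM with PE and 17.7, 24.1 and 15.1 FPKM in Vehicle, which overlap. Its log2 fold change was 0.55 ± 0.25 (limma adjusted p = 0.11, and 0.0248 with the replicate block). All 4 spindle checkpoint genes rose, by 0.56 to 0.83. They are Bub1, Bub1b (BubR1), Ttk (the kinase Mps1) and Mad2l1 (Mad2), which hold back anaphase until attachment is complete.

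All 7 genes of spindle motors and microtubule binders rose, by 0.50 to 0.99, with Hmmr, a spindle protein that binds hyaluronan and microtubules, at the top (0.99 ± 0.15, limma adjusted p = 0.00019). Kif11, the kinesin that pushes the spindle poles apart, rose by 0.69 ± 0.12 (0.00058). Tpx2, which activates Aurora A on the spindle, rose by 0.54 ± 0.14 (0.0069). All 5 genes of the central spindle and of cytokinesis rose. Ect2, the exchange factor that activates RhoA at the furrow, stood at 22.8, 21.7 and 28.01 FPKM with PE and at 11.01, 12.2 and 11.1 FPKM in Vehicle. Its groups lie far apart, with a log2 fold change of 1.01 ± 0.13 (limma adjusted p = 3.6e-05). Prc1, which bundles the microtubules between the separating chromosomes, and Kif20a, the kinesin of the same zone, each rose by 1.06 (adjusted p = 0.00037 and 0.00069). Racgap1, the partner of the kinesin Kif23 in centralspindlin, rose by 0.63 (adjusted p = 0.0041). The row of Kif20a shares its locus with Cdc23, so its values are uncertain.

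Of the genes that end mitosis, Pttg1 (securin, the inhibitor of separase) rose by 1.07 ± 0.22, Cdc20 (activator of the anaphase-promoting complex) by 0.84 ± 0.18 and Ube2c (its ubiquitin-conjugating enzyme) by 0.84 ± 0.27 (limma adjusted p = 0.002, 0.0027 and 0.027). The Ube2c call was lost in 6 alternatives, with adjusted p-values up to 0.0987. Espl1 (separase itself) changed by 0.37 ± 0.14 (adjusted p = 0.058, and 0.0391 with the replicate block). Top2a, the topoisomerase that untangles sister chromatids, rose by 0.67 ± 0.14 (adjusted p = 0.0023). Mki67, the proliferation antigen that coats mitotic chromosomes, stood at 18.4, 18.3 and 23.4 FPKM with PE and at 15.95, 17.7 and 14.0 FPKM in Vehicle. The PE libraries lie just above, and the log2 fold change was 0.31 ± 0.16 (limma adjusted p = 0.14).

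**Figure D2:**
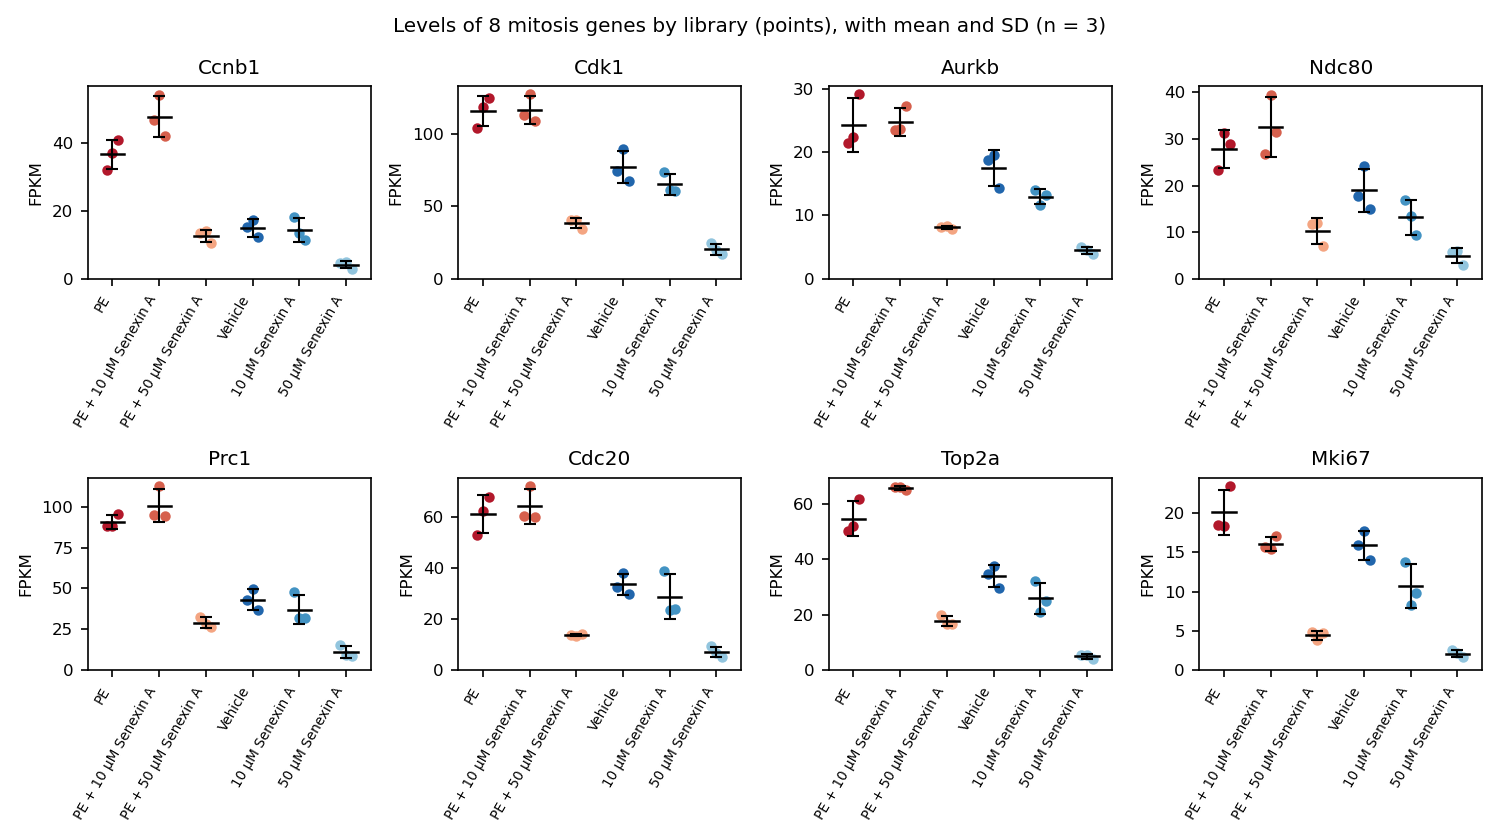
FPKM of 8 mitosis genes (y axis, from 0) in the 6 groups, with 1 point per library and bars for the mean and SD (n = 3). PE libraries of Ccnb1 (32.3 to 40.9 FPKM) lie above all Vehicle libraries (12.3 to 17.4 FPKM), the PE and Vehicle libraries of Mki67 lie close together, and both groups with 50 µM Senexin A are low in each panel relative to the group without inhibitor.

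Adding 50 µM Senexin A to PE lowered all 40 genes. Their log2 fold changes had a median of -1.37 and a range of -2.15 to -0.64, while the median over all tested genes was 0.00 and 27.4% of them were called lower. No library with PE and 50 µM reached the lowest PE library for any of the 40, against 30.3% of tested genes that were lower in this way. This comparison and PE against Vehicle share the PE libraries, so their opposite directions are not independent of each other.

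The lowest log2 fold changes of the 40 were those of Kif23, Cdc20, Kif20a and Mki67. Kif23, the kinesin of centralspindlin, stood at 7.10, 5.96 and 6.51 FPKM with PE and 50 µM, against 28.7, 34.96 and 33.9 FPKM with PE. Its mean was 0.201 times that of PE, and the log2 fold change was -2.15 ± 0.19 (limma adjusted p = 1.7e-07). Cdc20 stood at 13.7, 13.5 and 14.3 FPKM with PE and 50 µM, against 53.2, 62.4 and 68.1 FPKM with PE (-2.06 ± 0.18, adjusted p = 1.9e-07). Kif20a fell by the same amount (-2.06 ± 0.19, adjusted p = 2.7e-07), and Mki67 fell by 1.94 (6.4e-08).

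The smallest falls were those of Hmmr, Bub1 and Nek2. Hmmr kept 31.8, 29.9 and 27.96 FPKM with PE and 50 µM, against 49.6, 42.8 and 48.8 FPKM with PE (-0.64 ± 0.15, limma adjusted p = 0.0022). Bub1 fell by 0.88 ± 0.16 and Nek2 by 0.92 ± 0.22 (adjusted p = 0.00028 and 0.0024). By role, the median log2 fold change was -1.76 for Top2a and Mki67 on the chromosomes, -1.71 for the 5 cyclin and CDK1 genes, -1.61 for the 5 genes of the central spindle and cytokinesis and -1.45 for the 4 mitotic kinases. It was -1.36 for the 4 kinetochore genes, -1.35 for the 7 spindle motors and microtubule binders, -1.29 for the 5 genes of ubiquitin-driven exit and chromatid separation, -1.21 for the 4 genes of the passenger complex and -1.08 for the 4 checkpoint genes. In the passenger complex Aurkb fell by 1.46, Birc5 by 1.28 and Incenp by 1.14. Ccnb1 fell by 1.46 and Cdk1 by 1.56 (adjusted p = 4.3e-06 and 9.6e-08).

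Without PE, 50 µM Senexin A also lowered all 40 genes, where 30.2% of all tested genes were called lower. Log2 fold changes ran around a median of -1.73, with a range of -2.54 to -0.97, against -0.01 over all tested genes. The groups overlapped for none of the 40, against 32.2% of tested genes that were lower without overlap. Top2a stood at 5.62, 5.45 and 3.95 FPKM with 50 µM, against 34.7, 37.5 and 29.5 FPKM in Vehicle. Its mean was 0.148 times that of Vehicle (-2.54 ± 0.14, limma adjusted p = 2e-09). Ccna2 fell by the same amount (-2.54 ± 0.18, 1.9e-08), to 6.61, 6.12 and 3.40 FPKM with 50 µM, against 37.2, 40.3 and 29.1 FPKM in Vehicle. Mki67 fell by 2.44 ± 0.16 (5.4e-09). Melk averaged 0.936 FPKM with 50 µM and 7.53 FPKM in Vehicle, a fall that the log2(FPKM + 1) scale understates. The smallest falls were those of Hmmr by 0.97, Aurka by 1.09 and Mad2l1 by 1.16 (adjusted p = 4.7e-05, 2.4e-05 and 7e-06).

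**Figure D3:**
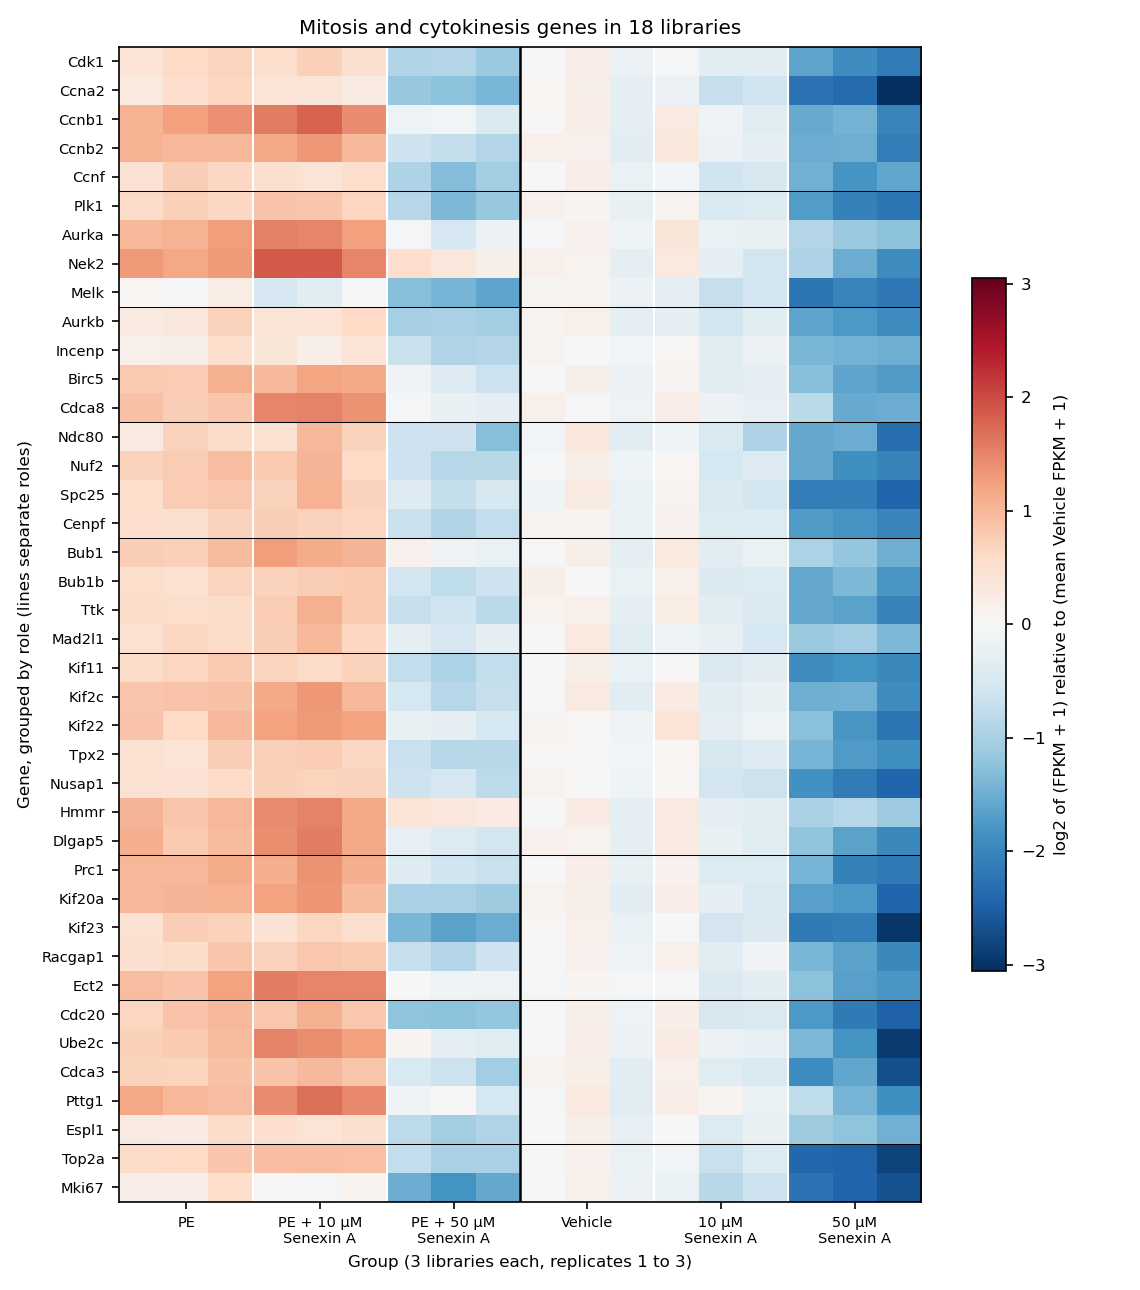
Log2 of (FPKM + 1) of the 40 genes (rows, lines between roles) in the 18 libraries (columns), relative to the Vehicle mean; red is higher and blue is lower. The 3 libraries with 50 µM Senexin A alone are blue in every row, and those with PE and 10 µM are red in most rows, with Melk and Mki67 as exceptions.

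Within each inhibitor dose, PE still raised these genes. PE with 50 µM against 50 µM alone raised 39 of the 40 and lowered none, where 9.31% of all tested genes were called higher and 5.01% lower. The median log2 fold change was 1.04, with a range of 0.33 to 1.85, against 0.01 over all tested genes. All 40 had higher levels with PE in every library, against 16.6% of tested genes. Ube2c stood at 50.3, 38.6 and 36.4 FPKM with PE and 50 µM, against 17.6, 12.7 and 5.33 FPKM with 50 µM alone (1.85 ± 0.27, limma adjusted p = 0.00027). Nek2 rose by 1.81 ± 0.22 and Spc25 by 1.66 ± 0.17 (adjusted p = 5.6e-05 and 1.4e-05). Espl1 changed by 0.33 ± 0.14 (adjusted p = 0.13), at 1.90, 1.42 and 1.67 FPKM with PE and 50 µM and 1.37, 1.16 and 0.826 FPKM with 50 µM alone. The smallest called rises were those of Ccnf (cyclin F, a substrate receptor of a ubiquitin ligase) by 0.52, Incenp by 0.60 and Melk by 0.70. The log2(FPKM + 1) scale understates the rise of Melk. Its mean was 2.14 FPKM with PE and 50 µM and 0.936 FPKM with 50 µM alone. The Ccnf call was lost without a filter (0.0507), in the fit of these groups alone (0.0992), and without PE with 50 µM replicate 1 or 3 (0.126 and 0.0774) or 50 µM replicate 2 or 3 (0.108 and 0.0614).

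PE with 10 µM against 10 µM alone raised 39 of the 40 and lowered none, where 18.9% of tested genes were called higher and 13.6% lower. The median log2 fold change was 1.13, with a range of 0.23 to 1.93. Nek2 rose by 1.93 ± 0.22, Ect2 by 1.78 ± 0.13 and Ccnb1 by 1.68 ± 0.18 (limma adjusted p = 1.5e-05, 4.4e-07 and 8.3e-06). Melk changed by 0.23 ± 0.14 (adjusted p = 0.23), and Incenp and Mki67 had the smallest called rises, of 0.49 and 0.57. Without replicate 2 of 10 µM alone the Mki67 call was lost (0.0575).

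At the lower dose few of these genes were called in the main fit, which has no term for replicate number. With PE, 10 µM raised 2 of the 40 and lowered none, where 9.13% of tested genes were called higher and 7.84% lower. Log2 fold changes were small, with a median of 0.16 and a range of -0.40 to 0.63. Cdca8 stood at 62.7, 64.4 and 58.3 FPKM with PE and 10 µM, against 41.2, 37.4 and 39.8 FPKM with PE (0.63 ± 0.16, limma adjusted p = 0.013). Ect2 stood at 35.9, 33.7 and 33.7 FPKM with PE and 10 µM, against 22.8, 21.7 and 28.01 FPKM with PE (0.50 ± 0.13, adjusted p = 0.016). In both genes every library with inhibitor was above every PE library.

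Neither call held in every alternative. Without PE replicate 2 both were lost (adjusted p = 0.0501 for Cdca8 and 0.073 for Ect2), and without replicate 1 of PE with 10 µM that of Ect2 was lost (0.059). With the replicate block 6 genes were called higher and 1 lower (Melk, adjusted p = 0.0491), and in a fit of these 2 groups alone 7 were called higher. Ube2c, with a value between those of Cdca8 and Ect2, was not called (0.56 ± 0.27, adjusted p = 0.17). Melk at -0.40 ± 0.14, Mki67 at -0.30 ± 0.16 and Ccnf at -0.13 ± 0.15 lay at the other end (adjusted p = 0.062, 0.21 and 0.6). Of the 40 genes, 16 were higher without overlap (19.3% of tested genes were) and 2 were lower (16.8% were).

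Without PE, 10 µM lowered 3 of the 40 and raised none, where 7.01% of tested genes were called lower and 9.17% higher. The median log2 fold change was -0.23, with a range of -0.56 to 0.05. Mki67 stood at 13.8, 8.34 and 9.87 FPKM with 10 µM, against 15.95, 17.7 and 14.0 FPKM in Vehicle (-0.56 ± 0.16, limma adjusted p = 0.024). Melk fell by 0.52 ± 0.14 and Aurkb by 0.40 ± 0.13 (adjusted p = 0.018 and 0.044). These 3 were also the genes whose groups did not overlap, where 17.2% of tested genes were lower in this way.

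Replicate 1 of the 10 µM group stood apart here, with a summed level of the 40 genes of 881.9 FPKM against a lowest library of 615 FPKM in the same group. Without it 10 genes were called lower. Without replicate 2 or 3 of that group, or without Vehicle replicate 1 or 2, none was called. The replicate block gave 6, and a fit of these 2 groups alone gave 1. At the upper end lay Pttg1 at 0.05 ± 0.22, Aurka at -0.01 ± 0.16 and Kif22, a chromosome-bound kinesin, at -0.01 ± 0.20 (adjusted p = 0.92, 0.98 and 0.98).

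**Figure D4:**
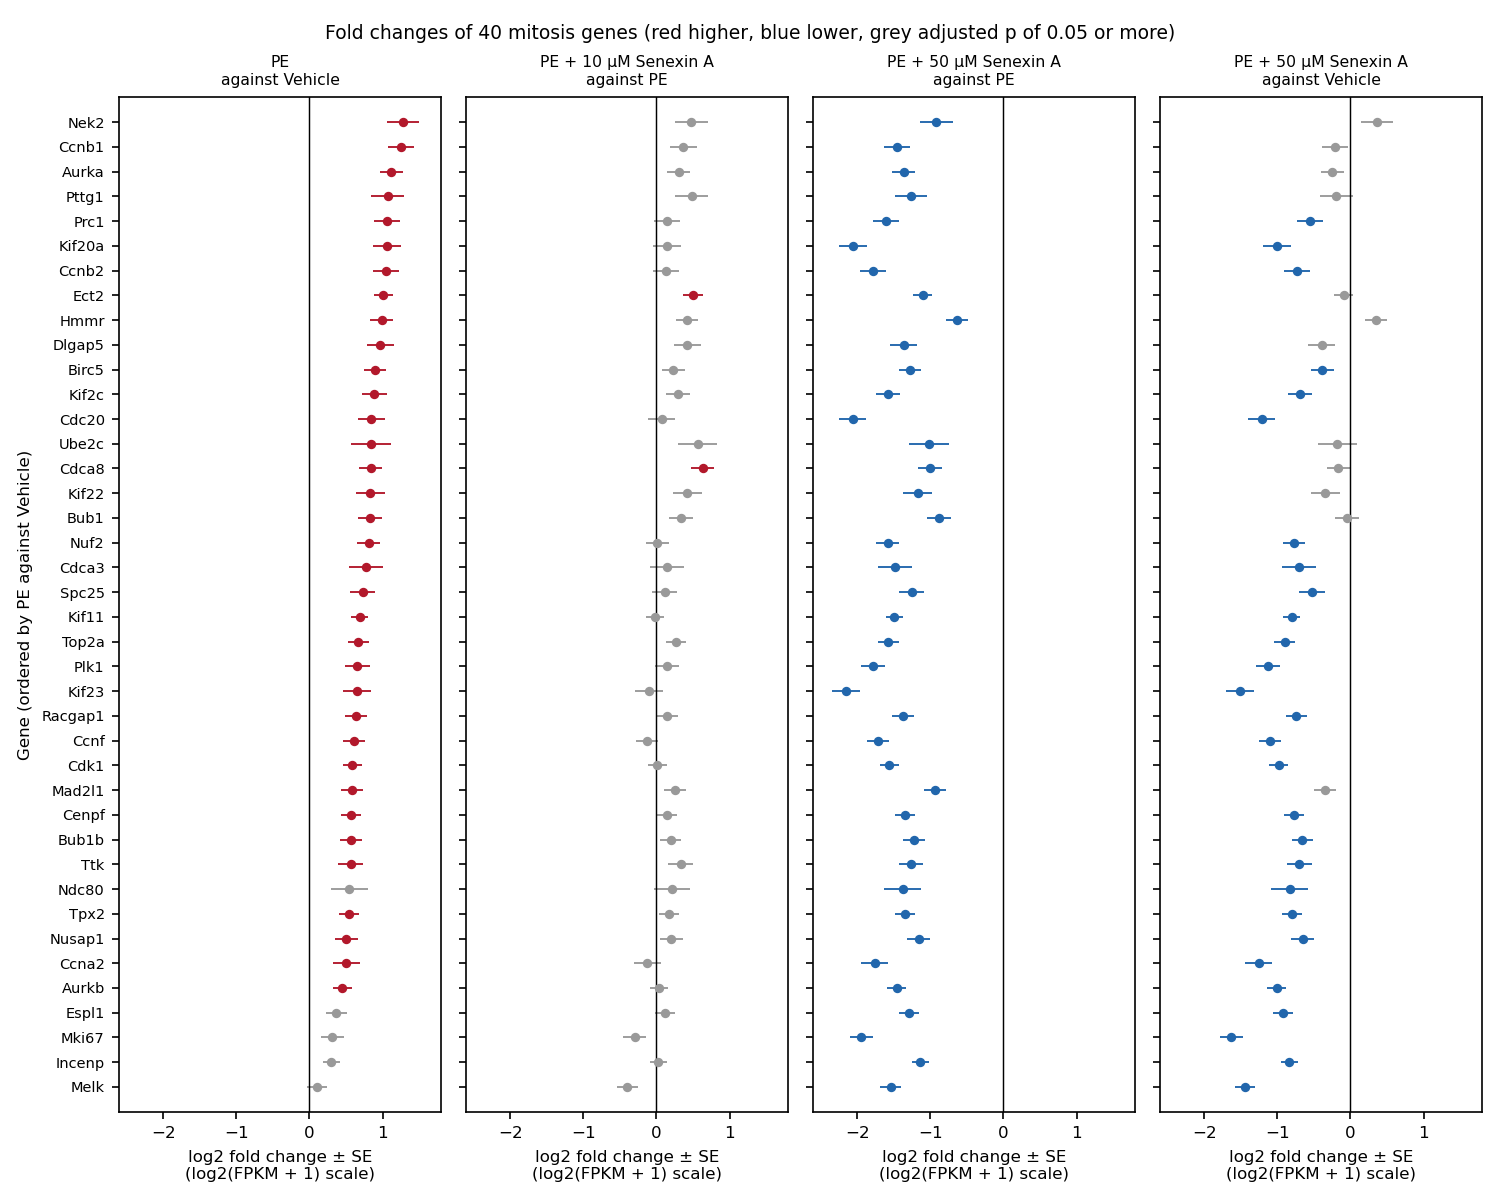
Log2 fold change ± SE (x axis, log2(FPKM + 1) scale) of the 40 genes in 4 comparisons, with genes ordered by their PE effect; red is called higher, blue called lower and grey not called. PE raised 35 genes, 10 µM Senexin A added to PE raised 2, 50 µM added to PE lowered 40, and PE with 50 µM against Vehicle left 28 lower and 12 not called.

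From 10 to 50 µM the fall covered all 40 genes on both backgrounds. With PE, 50 µM against 10 µM gave 40 lower (19.9% of tested genes), with a median of -1.59. Ranked by log2(FPKM + 1), Kif20a (-2.20), Cdc20 (-2.13) and Kif23 (-2.05) fell most, and Incenp (-1.16), Melk (-1.15) and Hmmr (-1.05) fell least. Melk averaged only 2.14 FPKM with PE and 50 µM and 5.99 FPKM with PE and 10 µM. By the ratio of means it would not be among the smallest falls. Without PE, 50 µM against 10 µM gave 40 lower (24.9% of tested genes), with a median of -1.56. In the same ranking Top2a (-2.16), Kif23 (-2.07) and Ccna2 (-2.06) fell most, and Espl1 (-1.05), Mad2l1 (-0.88) and Hmmr (-0.87) fell least. Melk averaged 0.936 FPKM with 50 µM and 4.97 FPKM with 10 µM, and Espl1 1.12 and 3.39 FPKM. The added 1 shrinks changes at such levels. By the ratio of means Melk would rank with Top2a, and Espl1 would not be among the smallest falls.

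PE together with 50 µM was also set against Vehicle. Of the 40, 28 were lower and none was higher, where 30.1% of tested genes were called lower and 33.2% higher, and the median log2 fold change was -0.72. Mki67 fell by 1.63 ± 0.16, Kif23 by 1.51 ± 0.19 and Melk by 1.44 ± 0.14 (limma adjusted p = 2.6e-07, 4.8e-06 and 2.8e-07). The 12 genes that were not called were Ccnb1, Aurka, Nek2, Cdca8, Bub1, Mad2l1, Kif22, Hmmr, Dlgap5, Ect2, Ube2c and Pttg1. Ccnb1 stood at 13.4, 14.1 and 10.7 FPKM with PE and 50 µM, against 15.3, 17.4 and 12.3 FPKM in Vehicle, with overlap (-0.21 ± 0.18, adjusted p = 0.31). Nek2 stood at 19.9, 17.7 and 15.7 FPKM with PE and 50 µM, against 15.3, 14.8 and 10.9 FPKM in Vehicle, without overlap (0.36 ± 0.22, adjusted p = 0.17, and 0.0306 with the replicate block). Hmmr changed by 0.35 ± 0.15 (adjusted p = 0.056, and 0.0202 with the block). The block called Nek2 and Hmmr higher, and it also called Dlgap5 (-0.39, adjusted p = 0.00717) and Mad2l1 (-0.35, 0.0186) lower, which made 30 lower and 2 higher. PE with 10 µM against Vehicle, led by Nek2 at 1.76 and Ccnb1 at 1.62, gave 37 higher (26.5% of tested genes) and none lower (22.1%), with Ccna2 at 0.37 (adjusted p = 0.11), Melk at -0.30 (0.091) and Mki67 at 0.02 (0.94) not called. Without replicate 3 of PE with 10 µM, Melk was called lower (-0.42, adjusted p = 0.0268).

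The order of the 6 group means was nearly the same from gene to gene. The lowest mean was that of 50 µM alone in 40 of 40 genes, and the highest was that of PE with 10 µM in 34 and of PE in 6. In 28 genes the full order from low to high was 50 µM, PE with 50 µM, 10 µM, Vehicle, PE, PE with 10 µM. Neighbours in that order were not always apart by more than their spread: 3 genes were called between 10 µM and Vehicle and 2 between PE with 10 µM and PE. Summed over the 40 genes, libraries held 1355 to 1538 FPKM with PE, 1563 to 1787 FPKM with PE and 10 µM, and 475 to 570.8 FPKM with PE and 50 µM. Without PE they held 697.9 to 922.9 FPKM in Vehicle, 615 to 881.9 FPKM with 10 µM and 160.5 to 260.5 FPKM with 50 µM.

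Whether the inhibitor effect depended on PE was tested as an interaction, the effect with PE minus the effect without PE. At 50 µM, 3 of the 40 genes were called, all positive, where 2.24% of tested genes were called positive and 4.76% negative. Top2a fell by 1.57 with PE and by 2.54 without PE (difference 0.97 ± 0.20, limma adjusted p = 0.0093). Nusap1, which bundles spindle microtubules near chromatin, fell by 1.16 with PE and by 2.14 without PE (0.98 ± 0.22, adjusted p = 0.016). Spc25 fell by 1.25 with PE and by 2.19 without PE (0.93 ± 0.25, adjusted p = 0.031), a call lost with quantile normalization (0.0637) and without a filter (0.0547). It was also lost without PE replicate 1 or 2, PE with 50 µM replicate 1 or 3, Vehicle replicate 2 or 50 µM replicate 3 (0.0566 to 0.0847). Ube2c had the largest difference, 1.01 ± 0.38 (adjusted p = 0.13, and 0.041 with the block), and Aurka (-0.28), Kif20a (-0.13) and Ccnf (-0.10) lay at the other end. The replicate block called 5 genes, and leaving out replicate 1 of 50 µM alone called 7. With a pseudocount of 0.1, Melk (1.00, limma adjusted p = 0.0243) and Cenpf (0.87, 0.0383) were also called. With a pseudocount of 0.5, Melk was called (0.77, 0.0461). The median difference over the 40 was 0.31, with 35 positive and 5 negative, against 0.03 over all tested genes.

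At 10 µM none of the 40 was called in the interaction by limma, where 0.305% of tested genes were. At an unadjusted p under 0.05, 8 were positive and none negative, where 4.94% of tested genes were positive and 4.77% negative in this way. All 40 differences were above 0, with a median of 0.39 and a range of 0.12 to 0.77, against a median of 0.00 over all tested genes. Ect2 had the largest, 0.77 ± 0.19 (adjusted p = 0.10), followed by Ndc80 at 0.71 and Cdca8 at 0.70. With the replicate block Ect2 (0.0292) and Cdca8 (0.0302) were called. The lowest were Melk at 0.12, Ccnb2 (cyclin B2) at 0.16 and Incenp at 0.19. The Ccnb2 row is uncertain: its interval in the table, chromosome 1 of rn5, is shared with Akap7, while RefSeq places Ccnb2 on chromosome 8. The chromosomes of the other rows, among them Racgap1 on chromosome X of rn5, were not compared with RefSeq.

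Other genes of the division machinery and of the steps around it were counted as lists. Among 49 further mitosis genes (of 63 listed), PE against Vehicle gave 33 higher and none lower with a median of 0.47, and 50 µM added to PE gave 2 higher and 41 lower with a median of -0.97. At 50 µM alone 3 were higher and 45 lower (median -1.31). Genes of DNA replication, the step before mitosis, had 3 higher and 3 lower of 32 with PE (median -0.11), against 35 higher and none lower of the 40 mitosis genes (median 0.71). At 50 µM they fell as well: 30 of 32 were lower and 1 higher when it was added to PE (median -1.11), and 32 of 32 were lower without PE (median -1.52). At 10 µM replication genes had 11 lower and none higher with PE (median -0.29), and 16 lower and none higher without PE (median -0.44). Of all tested genes, 17.9% were called higher and 12.7% lower in PE against Vehicle. At 50 µM, 27.4% were lower when it was added to PE and 30.2% without PE. At 10 µM, 7.84% were lower when it was added to PE and 7.01% without PE. No test between the lists was made.

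The core subunits of the anaphase-promoting complex, the ubiquitin ligase that Cdc20 activates, had medians near 0. Of 14, none was higher and 3 were lower when 50 µM was added to PE (median 0.00), and 4 were higher and 5 lower without PE (median -0.01). Of 7 genes of cohesin, the ring that holds sister chromatids together, 1 was higher and 5 were lower at 50 µM on each background (median -0.23 with PE and -0.48 without), and 4 were lower with PE against Vehicle (median -0.25). Of all 10478 tested genes, 3065 were higher and 2874 lower when 50 µM was added to PE, and 3192 higher and 3169 lower without PE. With PE against Vehicle, 12.7% of tested genes were lower.

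**Figure D5:**
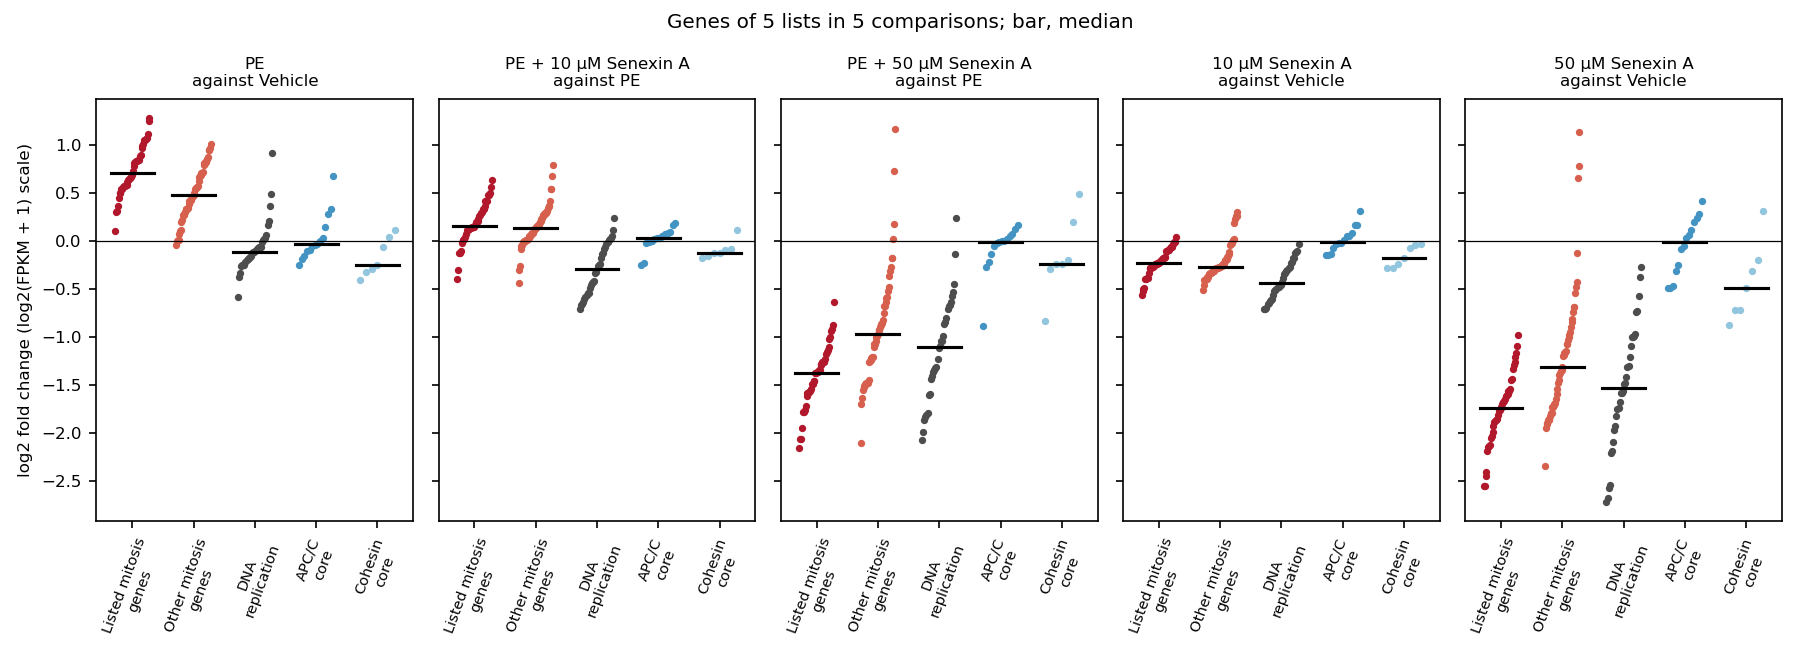
Log2 fold change (y axis, log2(FPKM + 1) scale) of each tested gene of 5 lists (x axis) in 5 comparisons, with a bar at the median of each list. In PE against Vehicle the listed mitosis genes centre on 0.71 and the DNA replication genes on -0.11, while at 50 µM Senexin A both lie well below 0 and the core of the anaphase-promoting complex has a median near 0.

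Transcription factors known to drive or restrain these genes were measured in the same libraries. Foxm1, an activator of late cell cycle genes, averaged 14.0 ± 2.85 FPKM with PE and 11.8 ± 1.56 FPKM in Vehicle (0.23 ± 0.14, limma adjusted p = 0.22). Within the inhibitor doses PE raised it, by 0.49 at 10 µM and by 0.72 at 50 µM (adjusted p = 0.012 and 0.002). Senexin A at 50 µM lowered it by 1.47 with PE and by 1.96 without PE (adjusted p = 2.5e-07 and 1.2e-08). At 10 µM it fell by 0.43 without PE (0.041) and changed by -0.17 with PE (0.43). Mybl2 (B-MYB) changed by -0.14 in PE against Vehicle (adjusted p = 0.59) and rose by 0.57 with PE at 50 µM (0.042). It fell by 1.21 and 1.92 at 50 µM with and without PE (2.6e-05 and 2e-07). E2f1, an activator of the entry into S phase, fell at both doses on both backgrounds, by 0.61 with 10 µM added to PE and by 0.67 with 10 µM alone (adjusted p = 0.014 and 0.0089), and by 1.66 and 2.12 at 50 µM with and without PE (3e-07 and 2.1e-08). E2f4, the E2F of the repressive DREAM complex, rose by 0.39 when 50 µM was added to PE and by 0.22 without PE (adjusted p = 0.00036 and 0.017).

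E2f7, a repressor E2F, fell by 1.10 when 50 µM was added to PE and by 1.48 without PE (adjusted p = 5e-05 and 2.1e-06). Rbl1 (p107), a pocket protein that can join DREAM, fell by 0.81 and 1.02 in the same comparisons (0.00011 and 1.1e-05). Rbl2 (p130), the pocket protein of DREAM in resting cells, changed by -0.16 when 50 µM was added to PE (adjusted p = 0.1) and fell by 0.23 at 50 µM without PE (0.019). It also fell by 0.22 in PE against Vehicle (0.046) and by 0.34 in PE with 10 µM against 10 µM alone (0.0044). Lin54, the MuvB subunit that binds the CHR, changed by -0.25 and -0.23 (0.08 and 0.1), and rose by 0.38 with PE against Vehicle (0.022). E2f8 and Lin9 were not analysed here.

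Markers of other cell types were set beside these changes. With PE against Vehicle, 0 of 10 tested fibroblast markers, 0 of 5 endothelial, 0 of 6 macrophage and 0 of 4 epicardial markers were called, and of 8 markers of smooth muscle and pericytes 2 were higher and 1 was lower. Over all tested genes, 17.9% were higher and 12.7% lower there. Of 11 cardiomyocyte markers 7 were higher and 1 was lower, and their sum was 100700 to 119700 FPKM in PE libraries and 40090 to 55520 FPKM in Vehicle libraries. At 50 µM added to PE, 4 of 10 fibroblast, 3 of 5 endothelial and 2 of 8 smooth muscle markers were lower, 1 of 4 epicardial and 0 of 6 macrophage markers were lower, and none of these was higher. Over all 10478 tested genes, 3065 were higher and 2874 (27.4%) lower in that comparison. Of 11 cardiomyocyte markers 2 were higher and 4 lower, and their sum was 57890 to 72990 FPKM with PE and 50 µM against 100700 to 119700 FPKM with PE. Smooth muscle and pericyte sums were 928.1 to 1028 FPKM with PE and 50 µM against 2051 to 3392 FPKM with PE, and 967.5 to 1475 FPKM with 50 µM alone against 2153 to 2954 FPKM in Vehicle, without overlap on either background. Fibroblast marker sums were 659.9 to 1271 FPKM with PE and 50 µM against 1277 to 2025 FPKM with PE, and 1011 to 1363 FPKM with 50 µM alone against 1880 to 3158 FPKM in Vehicle. The sums follow their most abundant genes. With PE and 50 µM against PE, Col1a1 averaged 282.1 against 634.2 FPKM, Acta2 (smooth muscle) 807 against 2369 and Myl2 (cardiomyocyte) 31560 against 69510. In that comparison 5 of 10 fibroblast markers went up and 5 down, with a median log2 fold change of -0.01. Of 8 smooth muscle markers 2 went up and 6 down, and of 11 cardiomyocyte markers 4 went up and 7 down. At 50 µM without PE 4 of 10 fibroblast, 2 of 5 endothelial, 3 of 8 smooth muscle, 2 of 4 epicardial and 0 of 6 macrophage markers were lower, and of 11 cardiomyocyte markers 4 were higher and 2 lower, with sums of 42990 to 65830 FPKM with 50 µM alone and 40090 to 55520 FPKM in Vehicle. These cardiomyocyte sums are not scaled to the library totals. Those totals were 755249 to 826406 FPKM with 50 µM alone and 610324 to 660958 FPKM in Vehicle. As shares of their totals the libraries still overlapped, but the lowest and the highest share were each smaller with 50 µM alone. Over all 10478 tested genes, 3192 were higher and 3169 (30.2%) lower at 50 µM without PE. Endothelial sums stayed low, at 4.67 to 6.73 FPKM with PE and 50 µM, 11.8 to 13.2 FPKM with PE, 4.22 to 7.70 FPKM with 50 µM alone and 11.48 to 12.8 FPKM in Vehicle. Col1a2, a defining fibroblast collagen, stood at or near the floor of 0.01 FPKM in every group, while Col1a1 averaged 634.2 FPKM with PE and 955 FPKM in Vehicle. The part of these cell types in the fall of the mitosis genes at 50 µM was not tested.

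Genes outside the 40 followed the same pattern. Over the 6 group means of log2(FPKM + 1), the members had a median Pearson r of 0.972 with Ccnb1 and a lowest r of 0.809, and 37 had an r over 0.9, as did 446 of all tested rows. The 5 closest rows outside the list were Knstrn (r = 0.9971), Sept10 (0.9962), Cks2 (0.9958), Pif1 (0.9946) and Kif18a (0.9945). Knstrn, a kinetochore and spindle protein, averaged 46.3 FPKM with PE, 52.1 FPKM with PE and 10 µM and 15.2 FPKM with PE and 50 µM, and 20.4 FPKM in Vehicle, 18.6 FPKM with 10 µM and 5.94 FPKM with 50 µM. Cks2 is a small subunit that binds CDK1, Kif18a a kinesin that aligns chromosomes, Pif1 a DNA helicase and Sept10 a septin. With 6 points from 1 set of libraries, r is a description only.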

How the data were processed

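The authors deposited 1 table of FPKM values with 1 column per library for 18 libraries of polyadenylated RNA. Per the submitters' processing notes, the tools were Bowtie2 and Cufflinks on the rn5 build; their versions, the annotation, any filter and the use of strand are not given in the sources used here. In the table the smallest value is a floor of 0.01 FPKM, at which 2766 rows stand in every library. All value columns matched a library by name. The number of unmatched columns was 0.

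From these values, log2(FPKM + 1) was fitted with limma 3.58.1 (group means of all 6 groups in 1 model, variance trend, 12 residual degrees of freedom) in R 4.3.3, on rows that reached 1 FPKM in 3 or more libraries. P-values were adjusted by Benjamini-Hochberg over the 10478 rows of each comparison. Group levels are mean ± SD of 3 libraries. The script was tested on simulated data. Promoters were searched and figures drawn with Python 3.11.15 and matplotlib 3.10.9.

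The members and all gene lists were chosen with earlier results of these data known. Genes named were a fixed panel over the roles, the 3 highest and 3 lowest of each main comparison, members not called where at least 80% were, and members called in an interaction. Further members are named where they complete a role.

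Replicate numbers come from the labels, which do not say what they share. Between groups, the deviations of libraries from their group means had r of 0.213 to 0.587 over the 45 pairs that share a number. The 90 pairs that do not share one had r of -0.462 to 0.095, so libraries that share a number varied together. The main fit has no term for this. Its SEs and adjusted p-values are the ones given, except where an alternative is named. The block by replicate number was an alternative, and so were fits restricted to the compared groups, each library left out in turn, 2 other pseudocounts (0.1 and 0.5), median-ratio scaling, quantile normalization, and a filter at 5 FPKM or none.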

Additional observations from a re-analysis of the deposited data

Results flagged for a closer look

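The inhibitor effect at 50 µM differed with and without PE for 3 of the 40 genes by limma's test of that difference. Top2a differed by 0.97 on the log2(FPKM + 1) scale, Nusap1 by 0.98 and Spc25 by 0.93, each with the smaller fall in the presence of PE. Top2a stood at 16.5 to 19.8 FPKM with PE and 50 µM and at 3.95 to 5.62 FPKM with 50 µM alone.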

How the results depend on the processing

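Counts of called genes stayed within 1.5 times the reported value in every alternative run for PE against Vehicle, for 50 µM against no inhibitor or against 10 µM, for PE within each dose, and for PE with either dose against Vehicle. Calls in the other direction appeared among these in PE with 50 µM against Vehicle (28 lower, none higher): Hmmr and Nek2 were higher with the replicate block, and Hmmr in the compared groups alone and without Vehicle replicate 2. In PE with 10 µM against Vehicle (37 higher, none lower) Melk was lower without replicate 3 of PE with 10 µM. Leaving out 1 library gave 27 to 35 genes for PE against Vehicle, 37 to 39 for PE at 50 µM, 38 to 39 for PE at 10 µM, 32 to 37 for PE with 10 µM against Vehicle, 24 to 30 for PE with 50 µM against Vehicle, and 40 in each fit for 50 µM against PE, Vehicle or 10 µM. The count moved for 10 µM added to PE (2 genes): the replicate block gave 7, the compared groups alone 7, and leaving out a library 0 to 3. It moved for 10 µM alone (3 genes): the replicate block gave 6, the compared groups alone 1, and leaving out a library 0 to 10. The interaction at 10 µM had 2 genes with the replicate block and 0 without any 1 library. The interaction at 50 µM (3 genes) had 5 with a pseudocount of 0.1, 5 with the replicate block and 2 to 7 without 1 library. The cause of these moves was not tested. Over single genes, 7760 alternative values gave 95 calls lost, 54 gained and 0 reversed, and 80 uncalled values changed sign. Read totals are unknown, so no counting error is given, and the pseudocount compresses genes near 1 FPKM: with 0.1 in its place the median at 50 µM alone was -1.92.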
